A study of Mus musculus with 24 samples.

Results

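Ddit4l, Mafa and Phex are 3 genes of the mouse striatum. They were picked from a table of read counts because they were the genes most clearly lower in carriers of the Q175 allele, both with Tyrobp intact and with Tyrobp deleted. They are 3 of 54532 genes in the table and 3 of the 19667 that passed the filter on low counts. All 3 passed that filter. The Q175 allele places a long CAG repeat in the mouse Htt gene, the lesion of Huntington's disease. The product of Tyrobp is an adaptor through which receptors on microglia signal.

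Bulk RNA was sequenced from the striatum of a single hemisphere of 24 mice on a C57BL/6 background, with 1 library per animal. The 4 groups were WT, which carried neither change, TyrobpKO, in which Tyrobp was deleted, Q175, in which the animals were heterozygous for the allele with Tyrobp intact, and Q175_TyrobpKO, which were heterozygous for the allele and lacked Tyrobp. Each group held 6 animals, 3 male and 3 female. The labels give no age and no repeat length, and they do not say whether the deletion was restricted to a cell type. Replicate numbers below only name libraries, with 1 to 3 male and 4 to 6 female.

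The 3 genes come from unrelated families. Ddit4l (also called REDD2) is a paralogue of Ddit4 (REDD1), and proteins of this pair restrain the kinase complex mTORC1, which drives protein synthesis and growth. Mafa encodes a large Maf transcription factor of the basic leucine zipper class, known best as an activator of insulin in pancreatic beta cells. Phex encodes a membrane-bound zinc metallopeptidase of the neprilysin family, known from bone and teeth, where its loss causes X-linked hypophosphatemia.

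Ddit4l (ENSMUSG00000046818) lies on chromosome 3 from 137621612 to 137628333, on the plus strand, and its Ddit4l-201 transcript has 3 exons and 579 coding bases. Mafa (ENSMUSG00000047591) lies on chromosome 15 from 75745490 to 75748228, on the minus strand, and consists of a single exon with 1077 coding bases. Phex (ENSMUSG00000057457) lies on chromosome X from 157162075 to 157415312, on the minus strand, and its Phex-201 transcript has 22 exons spread over 253 kb, with 2247 coding bases. These coordinates are as deposited and are identical to those of GENCODE M21, on the build GRCm38. Of the small genes that overlap Phex, Gm23798 had 14 reads over all 24 libraries, Gm15172 had 4 and Gm25795 had 0, against at least 39 reads for Phex in each library.

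The 3 genes were picked for a fall in carriers of the same allele, and shared control of them was not tested. The stretch just upstream of an annotated start site is shown, where available, to let the genes be compared there. RefSeq (build GRCm38.p6) gave a promoter window for 2 of the 3, Ddit4l and Phex. Each run is the 250 bases before the RefSeq start site, 5′ to 3′ on the strand of the gene, and capitals mark motif matches. These start sites, 137623672 for Ddit4l and 157415286 for Phex, are those of Ddit4l-201 and Phex-201. The gene models begin further upstream, at 137621612 for Ddit4l and 157415312 for Phex. The Ddit4l stretch thus lies inside its gene model, and stretches before any other start of the gene were not examined. In Ddit4l (chr3:137623422-137623671, plus strand) they mark an E-box and a GC box on the opposite strand, then a GC box near the start. In Phex (chrX:157415287-157415536, minus strand) they mark an E-box and, near the start, the core of a cAMP response element.

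Ddit4l: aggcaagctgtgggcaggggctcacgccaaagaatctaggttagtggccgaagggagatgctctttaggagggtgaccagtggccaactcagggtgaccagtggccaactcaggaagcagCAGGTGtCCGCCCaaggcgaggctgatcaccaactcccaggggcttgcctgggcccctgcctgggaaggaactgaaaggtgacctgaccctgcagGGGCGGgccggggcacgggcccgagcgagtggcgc

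Phex: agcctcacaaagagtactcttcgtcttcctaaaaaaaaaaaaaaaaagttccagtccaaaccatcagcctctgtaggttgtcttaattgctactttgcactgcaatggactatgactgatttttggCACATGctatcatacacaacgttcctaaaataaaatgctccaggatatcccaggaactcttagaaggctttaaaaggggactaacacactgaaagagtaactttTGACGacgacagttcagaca

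The upstream stretches of the pair differ in composition. G and C made up 65.2% of the Ddit4l stretch, higher than in 83.0% of 32851 such windows in the genome, and it held 10 CpG dinucleotides. They made up 39.2% of the Phex stretch, higher than in 10.3% of windows, and it held 4 CpG dinucleotides. The median window had 52.4% G and C and 6 CpG. The Ddit4l stretch contains a perfect 21-base tandem repeat (agggtgaccagtggccaactc) whose copies begin at positions -181 and -160 relative to the start. The Phex stretch contains a run of 17 A.

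Motifs were searched on both strands as fixed strings, with N for any base, and matches are descriptions of the sequence. The GC box (GGGCGG) occurred in 32.7% of all windows, and in Ddit4l it began at positions -123 and -35. The E-box (CANNTG) occurred in 66.2% of windows, beginning at -130 in Ddit4l and -124 in Phex. The cAMP response core (TGACG) occurred in 17.8% of windows and began at -20 in Phex. The TATA box (TATAAA, in 12.4% of windows), the full cAMP response element (TGACGTCA, 1.55%), the AP-1 site (TGANTCA, 6.75%), the EGR site (GCGTGGGCG, 0.536%), a Maf recognition core (TGCTGA, 16.1%) and the CCAAT box (CCAAT, 33.8%) had no match in either stretch. The E-box was thus the only searched motif present in both, and most windows hold it.

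The libraries held totals of 25.5 to 34.6 M counts (M, megacounts). Tyrobp was at 7.88 ± 1.15 CPM in WT (TMM-scaled CPM, the library-scaled count; SD, n = 6) and 8.68 ± 2.10 in Q175, against 0.341 ± 0.0926 in TyrobpKO and 0.260 ± 0.0423 in Q175_TyrobpKO, so the libraries matched their Tyrobp labels. Summed CPM of 28 marker genes of striatal projection neurons ran from 8856 to 21910 over the libraries, and none of the 28 was at 0 in a genotype. In the animal numbers of the labels, both Tyrobp-deleted groups share a prefix of their own. All 6 Q175 animals and WT replicate 3 share another, and the other 5 WT animals have a prefix of their own. What the prefix stands for is not stated, so it cannot be told apart from Tyrobp genotype, and only in part from the Q175 allele within the Tyrobp-intact groups.

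Ddit4l, the mTORC1 restrainer, had the highest level of the 3, also per length of gene model. In WT its lowest, median and highest libraries were at 19.1, 25.2 and 37.3 CPM, and in TyrobpKO at 15.6, 19.1 and 23.4. In Q175 they were at 5.80, 6.49 and 7.45 CPM, and in Q175_TyrobpKO at 5.88, 6.64 and 7.15. All 12 carriers of the Q175 allele were low and close together, and all 12 non-carriers were high and spread more widely. The highest carrier (Q175 replicate 3) and the lowest non-carrier (TyrobpKO replicate 1) were separated by 2.09-fold. The Ddit4l mean of the non-carriers was 26.1 ± 6.16 CPM in WT and 19.6 ± 2.69 in TyrobpKO, and that of the carriers 6.50 ± 0.575 in Q175 and 6.57 ± 0.572 in Q175_TyrobpKO (SD, n = 6).

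Mafa, the Maf factor, was a gene of few reads. Its lowest, median and highest WT libraries were at 8.46, 8.71 and 9.14 CPM, and those of TyrobpKO at 4.56, 6.07 and 10.5. In Q175 they were at 0.998, 1.83 and 2.21 CPM, and in Q175_TyrobpKO at 1.09, 1.89 and 2.25. WT values were close together, with a coefficient of variation of 2.66%, whereas TyrobpKO animals covered a wide range on both sides of WT (33.3%). The WT values rest on 229 to 284 reads per library. A spread that small is below counting error at such read numbers, so it does not show that the animals were alike. Carriers and non-carriers again did not overlap, with 2.03-fold between the highest carrier (Q175_TyrobpKO replicate 6) and the lowest non-carrier (TyrobpKO replicate 2). Mean Mafa was 8.77 ± 0.233 CPM in WT and 6.92 ± 2.30 in TyrobpKO, and in carriers 1.77 ± 0.417 in Q175 and 1.80 ± 0.481 in Q175_TyrobpKO (SD, n = 6). The carriers' values rest on 29 to 64 Mafa reads per library, so counting error weighs more on them than on Ddit4l, which had at least 156 reads in each library.

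Phex, the metallopeptidase, was also a gene of few reads. Its lowest, median and highest WT libraries were at 6.04, 8.08 and 11.2 CPM, and those of TyrobpKO at 6.50, 8.04 and 8.96. In Q175 they were at 1.30, 1.75 and 2.14 CPM, and in Q175_TyrobpKO at 1.44, 2.33 and 3.45. WT and TyrobpKO shared 1 range, and carriers lay below it, with Q175_TyrobpKO reaching higher than Q175. The gap between the highest carrier (Q175_TyrobpKO replicate 6) and the lowest non-carrier (WT replicate 5) was 1.75-fold, smaller than for the other 2 genes. Mean Phex was 8.36 ± 1.74 CPM in WT and 7.83 ± 0.958 in TyrobpKO, and in carriers 1.75 ± 0.310 in Q175 and 2.31 ± 0.733 in Q175_TyrobpKO (SD, n = 6).

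**Figure D1:**
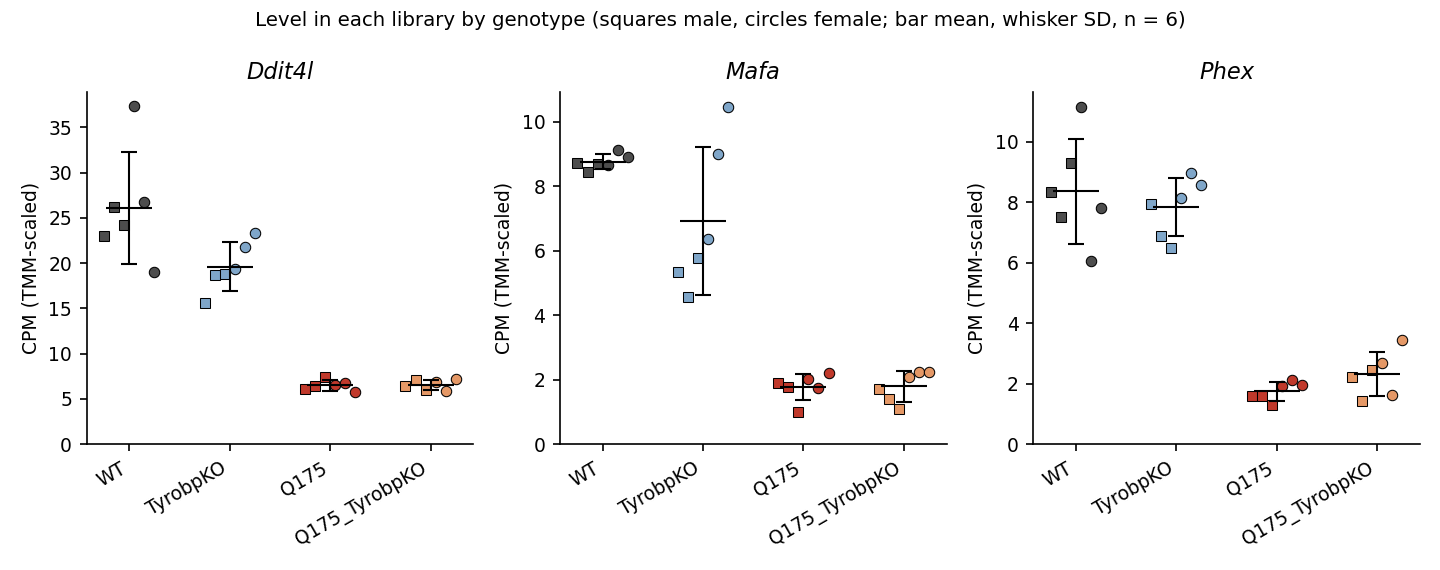
Level of each gene (vertical axis, TMM-scaled CPM, from 0) in each of the 24 libraries, by genotype. Squares are male and circles female animals, horizontal bars are means and whiskers SD over 6 libraries. In each panel the 12 Q175 carriers on the right lie below the 12 non-carriers on the left with no overlap, and the widest gap ratio is that of Ddit4l (2.09-fold).

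That all 3 genes separate carriers from non-carriers is what they were picked for, so no test of it is given. For reference, 0.722% of the tested genes (142 of 19667) were lower in carriers with no overlap of the 24 libraries. The order of the group means was the same for all 3, with WT highest, then TyrobpKO, Q175_TyrobpKO and Q175. The ranges of WT and TyrobpKO overlapped for each gene, as did those of Q175 and Q175_TyrobpKO. In bulk tissue, fewer cells of a type and less RNA per cell cannot be told apart.

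Compared between genes per length of gene model, the order of levels in WT was Ddit4l, Mafa, Phex. On that scale Ddit4l was at 8.94 ± 2.11 CPM per kb (SD, n = 6), Mafa at 3.20 ± 0.0851 and Phex at 1.33 ± 0.276. In Q175 the levels were 2.23 ± 0.197 CPM per kb for Ddit4l, 0.647 ± 0.152 for Mafa and 0.278 ± 0.0493 for Phex, in the same order. Phex and Mafa were close in CPM, which is not comparable between genes, and apart once the longer Phex model of 6291 bases is set against the 2739 bases of Mafa. The Ddit4l model has 2916 bases.

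With Tyrobp intact, Q175 animals kept 24.9% of the mean WT level of Ddit4l, 20.2% of that of Mafa and 20.9% of that of Phex. The fitted log2 fold changes were -2.0 ± 0.12 (SE) for Ddit4l, -2.33 ± 0.16 for Mafa and -2.27 ± 0.17 for Phex. They are given as a description, since this contrast chose the genes. In this contrast, 5.47% of tested genes were called lower at an edgeR adjusted p under 0.05, and 2.39% were lower with no overlap in CPM.

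With Tyrobp deleted, carriers kept 33.5% of the mean TyrobpKO level of Ddit4l, 26.0% of that of Mafa and 29.5% of that of Phex. The log2 fold changes of Q175_TyrobpKO against TyrobpKO were -1.57 ± 0.12 for Ddit4l, -1.93 ± 0.16 for Mafa and -1.76 ± 0.16 for Phex. In this contrast, 3.08% of genes were called lower by edgeR, and 2.27% were lower with no overlap in CPM. This second comparison was part of the choice too. It lies within animals of a single prefix, unlike Q175 against WT.

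All 3 log2 fold changes were closer to 0 with Tyrobp deleted. The difference was 0.43 ± 0.16 (SE) on the log2 scale for Ddit4l, 0.40 ± 0.23 for Mafa and 0.51 ± 0.23 for Phex, and it was not tested because both contrasts chose the genes. Its parts differed by gene. For Ddit4l and Mafa the carrier groups were at nearly the same level and the TyrobpKO baseline was below that of WT. For Phex the larger part of the difference lay between the carrier groups, with a Q175_TyrobpKO mean above the Q175 mean.

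When genes lower in both contrasts were ordered by the larger of their p-values, Ddit4l, Mafa and Phex held ranks 1, 2 and 3 of 6707. The gene next in order was Gm19410, whose log2 fold change was -1.12 ± 0.10 with Tyrobp intact and -1.09 ± 0.10 with Tyrobp deleted. The WT mean of Gm19410 was 93.6 ± 11.5 CPM and its Q175 mean 43.6 ± 7.18, a smaller fold than that of any of the 3. By size of fold the 3 were not at the top. Among all tested genes 18 had a more negative log2 fold change than Ddit4l in Q175 against WT, 10 than Mafa and 12 than Phex. With Tyrobp deleted the numbers were 33, 11 and 19.

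WT replicate 3 is the WT animal that shares its prefix with the Q175 group. It was at 24.2 CPM for Ddit4l, 8.70 for Mafa and 9.31 for Phex. All 3 values lay within the range of the other 5 WT libraries and above every Q175 library, the highest of which was at 7.45 CPM for Ddit4l, 2.21 for Mafa and 2.14 for Phex. A single animal gives no test.

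Deletion of Tyrobp alone passed the test for none of the 3 (edgeR, adjusted over all genes). At an unadjusted edgeR p under 0.05 there were 2 of the 3, and 1269 of all 19667 genes. The choice of the genes did not use this contrast. Both of its groups were baselines in the choice, however, so the p-values are not free of it. DESeq2 and limma-voom also called 0 of 3. In this contrast edgeR called 0.117% of all genes tested. Ddit4l came nearest: the log2 fold change of TyrobpKO against WT was -0.41 ± 0.11 (SE; edgeR p 0.000900, adjusted p 0.443), with all 6 TyrobpKO libraries below the WT mean and 3 below every WT library. The exact 2-sided permutation test of mean CPM gave p = 0.0216 for Ddit4l, and 0.130 after adjustment over 6 tests. Leaving out WT replicate 6, the lowest WT library for this gene, gave -0.51 and an edgeR adjusted p of 0.0416, so 1 library decides the call.

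Mafa gave -0.39 ± 0.15 in TyrobpKO against WT (edgeR adjusted p 0.749; exact permutation p 0.0606, adjusted 0.182), with 4 of 6 TyrobpKO libraries below every WT library and the other 2 above the WT mean. The Mafa value was -0.72 ± 0.22 in males alone (edgeR adjusted p 0.140) and -0.05 ± 0.18 in females alone (adjusted p 1), and the difference between sexes in this contrast was not tested. Phex gave -0.10 ± 0.15 (edgeR adjusted p 0.894; exact permutation p 0.548, adjusted 0.821), with ranges that overlapped throughout. The 28 projection neuron markers moved in the same direction in this contrast. All 28 had a negative log2 fold change, with a median of -0.28, and 0 were called by edgeR, DESeq2 or limma-voom. At an unadjusted edgeR p under 0.05 there were 13 of the 28, against 1269 of all 19667 genes. Of 10 marker genes of cortical excitatory neurons, 9 had a positive log2 fold change, with a median of 0.82 and 0 called (0 at an unadjusted p under 0.05). Summed cortical markers ran from 162 to 832 CPM in WT and from 521 to 1070 in TyrobpKO. The part of these markers in the values of Ddit4l and Mafa was not tested.

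Deletion of Tyrobp in Q175 carriers passed the test for none of the 3 (edgeR; 1 of 3 had an unadjusted p under 0.05), and DESeq2 and limma-voom called 0 of 3. The background in this contrast was 0.158% of genes called, with 1187 of 19667 at an unadjusted edgeR p under 0.05. Both groups had entered the choice of the genes as carriers, though not against each other. Ddit4l differed by 0.01 ± 0.12 (SE; edgeR adjusted p 0.990) and Mafa by 0.01 ± 0.17 (edgeR adjusted p 0.995). The levels of both in Q175_TyrobpKO lay inside or next to the range of Q175. Phex was at 0.40 ± 0.17 on the log2 scale (edgeR p 0.0281, adjusted p 0.818; exact permutation p 0.108, adjusted 0.216), with 4 of 6 Q175_TyrobpKO libraries above the Q175 mean. Without Q175_TyrobpKO replicate 6, the highest, the Phex value was 0.28, and without Q175_TyrobpKO replicate 5 it was 0.51.

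Sex was not used in the choice either. Over the 4 genotypes Mafa was at 0.43 ± 0.11 in females against males on the log2 scale (edgeR p 0.000685, adjusted p 0.464), Phex at 0.24 ± 0.12 (adjusted p 0.999) and Ddit4l at 0.11 ± 0.08 (adjusted p 0.999). None passed, DESeq2 and limma-voom called 0 of 3, and edgeR called 0.0814% of all genes between sexes. At an unadjusted edgeR p under 0.05 there were 2 of the 3, and 796 of all 19667 genes. In TyrobpKO the 3 females were above the 3 males for all 3 genes. The females of that group were at 19.3 to 23.4 CPM for Ddit4l against 15.6 to 18.8 in males, and at 6.38 to 10.5 against 4.56 to 5.76 for Mafa. For Phex they were at 8.13 to 8.96 CPM against 6.50 to 7.94. In that genotype 9.06% of all tested genes were higher in females with no overlap, the largest such share of the 4 genotypes.

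The separation of sexes was less regular elsewhere. In Q175_TyrobpKO only Mafa was higher in females with no overlap, at 2.07 to 2.25 CPM against 1.09 to 1.71, where 4.92% of genes were. In Q175 only Phex was, at 1.92 to 2.14 CPM against 1.30 to 1.59, where 5.45% of genes were. In WT none of the 3 was, where 4.35% of genes were. The Q175 effect, averaged over Tyrobp genotypes, differed between females and males by -0.25 ± 0.16 for Ddit4l, 0.12 ± 0.21 for Mafa and 0.26 ± 0.24 for Phex (edgeR adjusted p 0.998 for each). edgeR called 0 genes in this contrast (593 of 19667 at an unadjusted p under 0.05; 0 of the 3), and DESeq2 and limma-voom called 0 of the 3.

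Family relatives of the 3 genes were measured in the same libraries. Ddit4, the paralogue of Ddit4l and a stress-induced mTORC1 inhibitor, had means of 25.9 ± 4.47 CPM in WT and 23.7 ± 4.37 in Q175 (SD, n = 6). The fitted log2 value was -0.13 ± 0.12 for Q175 against WT (edgeR adjusted p 0.588) and 0.13 ± 0.12 in Q175_TyrobpKO against TyrobpKO (adjusted p 0.648). Carriers and non-carriers overlapped for Ddit4 in both contrasts, unlike for Ddit4l.

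Maf, another large Maf factor, did not pass in either Q175 contrast. It had a WT mean of 18.9 ± 4.74 CPM and a Q175 mean of 16.6 ± 1.60 (log2 fold change -0.19 ± 0.14, edgeR adjusted p 0.471). With Tyrobp deleted the log2 fold change of Maf was -0.21 ± 0.14 (edgeR adjusted p 0.453). Nrl, the retinal member, had 28 reads over all 24 libraries and was not tested.

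Among relatives of Phex, Mme (neprilysin), Ece1 (endothelin-converting enzyme) and Ecel1 did not pass in either Q175 contrast. Mme had means of 104 ± 24.2 CPM in WT and 104 ± 12.7 in Q175. Ece2 moved opposite to Phex. It rose from 3.26 ± 0.868 CPM in TyrobpKO to 6.58 ± 1.33 in Q175_TyrobpKO (log2 fold change 1.01 ± 0.20, edgeR adjusted p 0.00271), with each carrier above the TyrobpKO mean. In Q175 against WT Ece2 was at 0.56 ± 0.20 (edgeR adjusted p 0.0822), and 1 of 32 alternatives called it (adjusted p 0.0136 without Q175 replicate 1). The Ece2 difference in Tyrobp-deleted animals was not called in males alone (adjusted p 0.331).

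**Figure D2:**
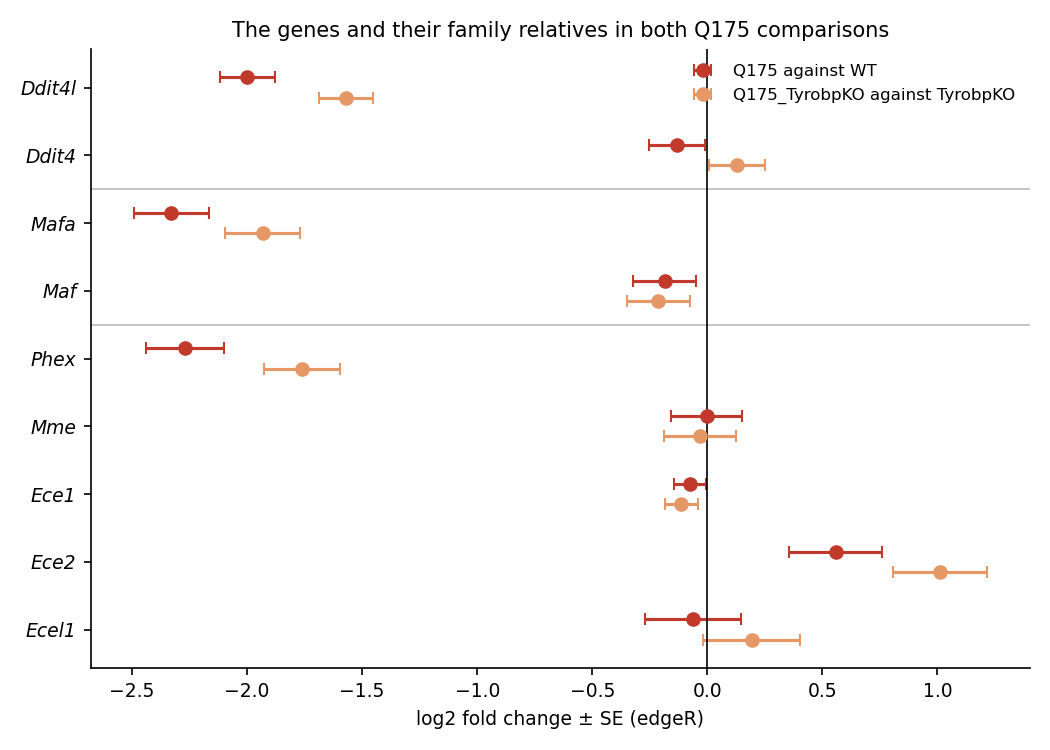
Fitted log2 fold change with SE (horizontal axis) of the 3 genes and of 6 relatives in Q175 against WT (red) and Q175_TyrobpKO against TyrobpKO (orange), grouped by family. Ddit4l, Mafa and Phex lie between -2.33 and -1.57, while their relatives lie near 0 except Ece2, which is positive (1.01 with Tyrobp deleted).

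The wider pathways of the 3 genes were described by 6 lists that do not include them. Counts are set beside the shares of all tested genes called, 9.63% (Q175 against WT) and 5.86% (Q175_TyrobpKO against TyrobpKO) in either direction. For Ddit4l, 36 genes of the mTORC1 pathway were tested. In Q175 against WT 1 was higher and 0 lower, with a median log2 fold change of 0.02 against 0.01 over all genes. The higher gene was Rragb, a Rag GTPase that brings mTORC1 to lysosomes (0.21 ± 0.06, edgeR adjusted p 0.0390), and 11 of 32 alternatives did not call it, with adjusted p up to 0.380. In Q175_TyrobpKO against TyrobpKO 0 were called (4 at an unadjusted edgeR p under 0.05; DESeq2 called 1 and limma-voom 0), with Ulk1, an autophagy kinase under mTORC1 control, at 0.20 ± 0.06 (adjusted p 0.0550, called in 11 of 32 alternatives with adjusted p down to 0.0271). Mtor, the kinase itself, was at 0.15 ± 0.05 there (edgeR adjusted p 0.129).

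Of 15 genes of the stress response that induces the REDD proteins, 3 were lower and 0 higher in Q175 against WT, with a median of -0.21. Nupr1, a stress-induced chromatin protein, fell from 4.64 ± 1.26 to 2.75 ± 0.646 CPM (log2 fold change -0.76 ± 0.17, edgeR adjusted p 0.00329). Cdkn1a, the cell cycle inhibitor p21, fell by 0.48 ± 0.12 on the log2 scale (adjusted p 0.0101). Trib3, a pseudokinase induced by stress and named after its values were seen, had -0.85 ± 0.25 (adjusted p 0.0288). With Tyrobp deleted 2 were lower and 0 higher, Cdkn1a (-0.58 ± 0.12, adjusted p 0.00345) and Ddit3, the stress factor CHOP (-0.39 ± 0.08, adjusted p 0.00418). Each of these folds was smaller than that of Ddit4l, which was picked for its fall in these contrasts.

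For Mafa, 10 of 12 listed Maf proteins and dimer partners were tested, and in Q175 against WT 2 were higher and 1 lower. Nfe2l3, a cap'n'collar factor that pairs with small Maf proteins, rose by 0.64 ± 0.13 (edgeR adjusted p 0.00121). Nfe2l2 (NRF2), of the same class and named after its values were seen, rose by 0.34 ± 0.10 (adjusted p 0.0330). Bach2, a repressor that also pairs with small Mafs, had -0.37 ± 0.10 (adjusted p 0.0219), and 5 of 32 alternatives did not call it. In Q175_TyrobpKO against TyrobpKO 0 of the 10 were called (2 at an unadjusted edgeR p under 0.05; DESeq2 and limma-voom called 0).

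Over all 42 other tested genes that the deposited table assigns to the bZIP family, 6 were lower and 3 higher in Q175 against WT, and 4 lower and 1 higher in Q175_TyrobpKO against TyrobpKO. The most negative log2 fold change among them was -0.81 ± 0.46 (Batf3, edgeR adjusted p 0.310) in Q175 against WT. It was -0.61 ± 0.28 (Maff, adjusted p 0.227) with Tyrobp deleted. The values of Mafa, which was picked by these contrasts, were -2.33 and -1.93.

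Of 16 listed genes that act with Mafa in pancreatic beta cells, 9 passed the filter. In Q175 against WT 2 were higher and 1 lower. Nkx6-1, a homeobox factor of beta cells and of the developing nervous system, had means of 0.0469 ± 0.0579 CPM in WT and 1.14 ± 0.496 in Q175 (log2 fold change 4.43 ± 0.69, edgeR adjusted p 7.84e-05). It was also higher with Tyrobp deleted (2.40 ± 0.62, adjusted p 0.0186, but 0.550 in males alone), the only gene of this list called there. Pax6 rose by 0.54 ± 0.12 (adjusted p 0.00351) and Pcsk2, a prohormone convertase, fell by 0.26 ± 0.07 (adjusted p 0.0189, not called in 5 of 32 alternatives). These 3 did not share the direction of Mafa as a group.

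For Phex, 5 other M13 metallopeptidases were tested, and 0 were called in Q175 against WT (1 at an unadjusted edgeR p under 0.05; DESeq2 and limma-voom called 0). Ece2 was the only one called with Tyrobp deleted. Of 18 tested genes of phosphate and mineral handling, 1 was higher and 1 lower in Q175 against WT. Enpp1, which makes the mineralization inhibitor pyrophosphate, rose by 0.43 ± 0.12 (edgeR adjusted p 0.0159, not called in 3 of 32 alternatives). Cyp27b1, which makes active vitamin D, had means of 1.49 ± 0.576 CPM in WT and 0.605 ± 0.409 in Q175 (-1.28 ± 0.38, adjusted p 0.0291), and 8 of 32 alternatives did not call it. Vdr, the vitamin D receptor, was at -1.33 ± 0.48 (adjusted p 0.0791). In Q175_TyrobpKO against TyrobpKO 0 of the 18 were called by edgeR (3 at an unadjusted p under 0.05), 1 by DESeq2 and 0 by limma-voom. Vdr was at -1.49 ± 0.51 there (edgeR adjusted p 0.0816) and was called in 2 of 32 alternatives, with adjusted p down to 0.0348.

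In both contrasts that test the deletion of Tyrobp, edgeR, DESeq2 and limma-voom each called 0 genes of any of the 6 lists. At an unadjusted edgeR p under 0.05 there were at most 3 genes in a list.

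Genes beside the 3 on their chromosomes were examined next. The 3 nearest tested genes on each side gave 18 neighbours. In Q175 against WT 1 was called lower and 1 higher, and in Q175_TyrobpKO against TyrobpKO 1 was called lower and 0 higher. Of all genes edgeR called 9.63% in the first contrast and 5.86% in the second, so these counts were near the background. The neighbours of Mafa lay between -0.04 and 0.12 on the log2 scale in Q175 against WT, and 0 of 6 were called by edgeR. The nearest, Zc3h3, begins 6.20 kb from Mafa and was at 11.6 ± 1.35 CPM in WT, and its value in Q175 against WT was 0.04 ± 0.09 (edgeR adjusted p 0.819).

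The nearest neighbour of Phex, Sms (spermine synthase), lies 28.5 kb away and was at 0.12 ± 0.06 (edgeR adjusted p 0.294). Prdx4, a peroxiredoxin 1821 kb from Phex, rose by 0.33 ± 0.09 (adjusted p 0.0173), opposite to Phex, and 5 of 32 alternatives did not call it. Around Ddit4l the nearest gene, Emcn at 189 kb, had -0.19 ± 0.17 (adjusted p 0.564). Ppp3ca, the calcineurin catalytic subunit, which is abundant in striatal neurons, lies 684 kb from Ddit4l. Its mean fell to 1975 ± 153 CPM in Q175 from 2770 ± 331 in WT (-0.49 ± 0.08, edgeR adjusted p 0.000174) and had -0.40 ± 0.08 with Tyrobp deleted (adjusted p 0.00260). No neighbour was as negative as the gene it flanks in either contrast, but the flanked genes were picked for low values there. Among the relatives, list genes and neighbours called above, Nupr1, Cdkn1a, Ddit3, Nfe2l3, Pax6, Ece2 and Ppp3ca each lost a call only in fits of males or females alone, with edgeR adjusted p up to 0.397 (Cdkn1a).

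**Figure D3:**
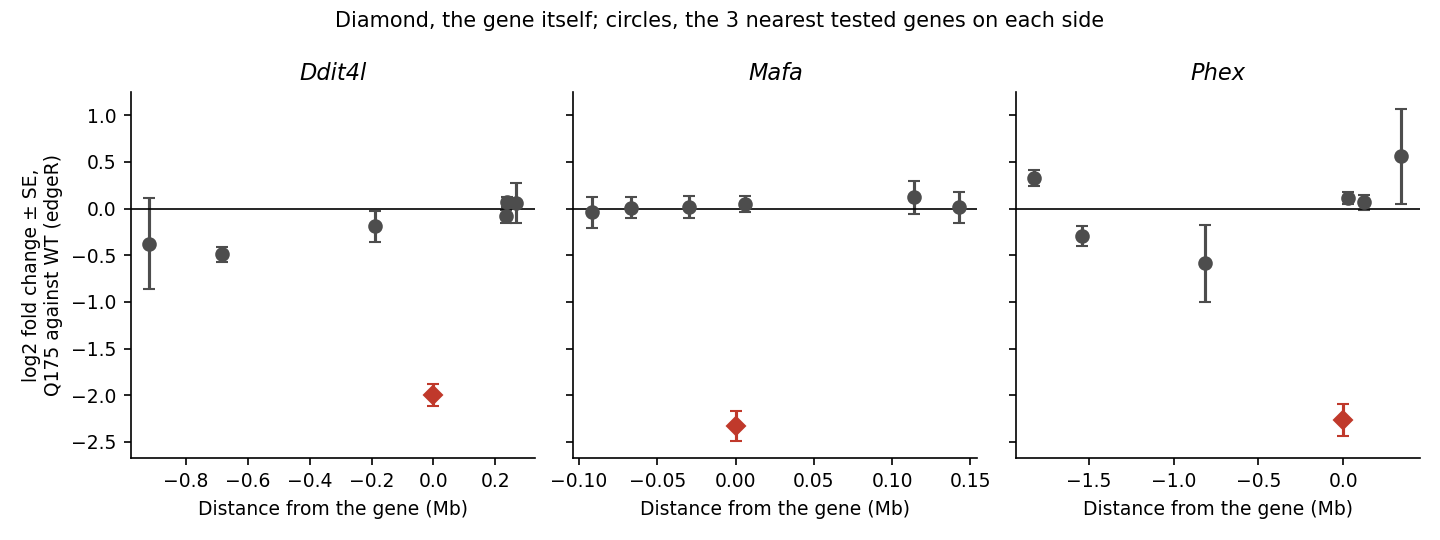
Fitted log2 fold change with SE in Q175 against WT (vertical axis) of each gene (red diamond at 0) and of its 3 nearest tested genes on each side (grey circles), against distance in Mb (horizontal axis, a different range in each panel). The diamonds lie at -2.0, -2.33 and -2.27, and the circles between -0.59 and 0.56.

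The striatum of Q175 carriers also had less RNA of projection neuron markers, so the 3 genes were set beside these. In Q175 against WT 17 of the 28 markers were called lower and 0 higher, with a median log2 fold change of -0.52. Of all genes 5.47% were called lower there. With Tyrobp deleted 8 markers were lower and 0 higher, with a median of -0.30, against 3.08% of all genes called lower. The most negative marker in both was Scn4b, a sodium channel subunit of projection neurons, at -1.33 and -1.10. None of the 28 markers was as negative as Ddit4l, Mafa or Phex in either contrast. The 3 were picked for a clear fall in these contrasts, so this is a description only.

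Markers of other cell types also moved with genotype. All 9 choroid plexus markers had a positive log2 fold change in Q175 against WT, and 4 were called higher by edgeR (6 by DESeq2, 0 by limma-voom). Their summed level ran from 36.4 to 72.3 CPM in WT, from 25.6 to 129 in TyrobpKO, from 35.2 to 4105 in Q175 and from 40.0 to 582 in Q175_TyrobpKO. None of the 9 was at 0 in a genotype. Summed astrocyte markers ran from 4503 to 5020 CPM in WT against 3755 to 4442 in Q175, and from 4721 to 5175 in TyrobpKO against 3881 to 4287 in Q175_TyrobpKO, with no overlap in either contrast. Of these 10 astrocyte genes edgeR called 2 lower and 2 higher in Q175 against WT, and 3 lower and 0 higher with Tyrobp deleted. Of 10 endothelial and pericyte markers 2 were called lower in the first contrast and 3 in the second, and 0 higher in both. Of 10 oligodendrocyte markers 0 were called in the first (4 at an unadjusted edgeR p under 0.05; DESeq2 called 1, limma-voom 0) and 3 lower in the second. The part of these cell types in the values of Ddit4l, Mafa and Phex was not tested.

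Each gene was then expressed relative to a score, the mean log2 CPM of the 28 projection neuron markers in the same library. On that scale the difference of Q175 from WT was -1.44 for Ddit4l, -1.77 for Mafa and -1.68 for Phex. The difference of Q175_TyrobpKO from TyrobpKO was -1.23 for Ddit4l, -1.56 for Mafa and -1.45 for Phex. These are the selecting contrasts on another scale and a description only. The score itself differed by -0.53 and -0.33 in these contrasts. For TyrobpKO against WT the relative differences were -0.11 for Ddit4l, -0.12 for Mafa and 0.20 for Phex, with overlapping groups. The score differed by -0.28 there, and the unscaled values were -0.39 for Ddit4l, -0.40 for Mafa and -0.08 for Phex. This scale for the Tyrobp contrast was chosen after the data were seen.

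The genes were picked by differences between genotypes, and the spread within genotypes entered the p-values that ranked them. Their covariation with other genes within a genotype did not. Values were centred on genotype means and examined within the 12 non-carriers and within the 12 carriers, as 12 relations in 1 family. Phex followed the projection neuron score in non-carriers, with Pearson's r = 0.803 (permutation p 0.00234, adjusted 0.0281) and Spearman's rho = 0.825 (permutation p 0.00278, adjusted 0.0334). It held at r = 0.71 without WT replicates 4 and 5, the 2 libraries farthest from the median of Phex. Within WT alone r was 0.926 and within TyrobpKO 0.711, and after centring on genotype and sex it was 0.800. How many other genes follow the score this closely was not examined, so the relation is not shown to be particular to Phex. The part of cortical tissue in the dissections was not tested.

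The relation of Phex to the score was not seen in carriers, where r was 0.117 (permutation p 0.755, adjusted 0.840) and rho 0.147 (adjusted 0.833). It was 0.128 within Q175 and 0.114 within Q175_TyrobpKO. Whether the relation differs between carriers and non-carriers was not tested, and the carriers' Phex values rest on 39 to 95 reads per library.

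**Figure D4:**
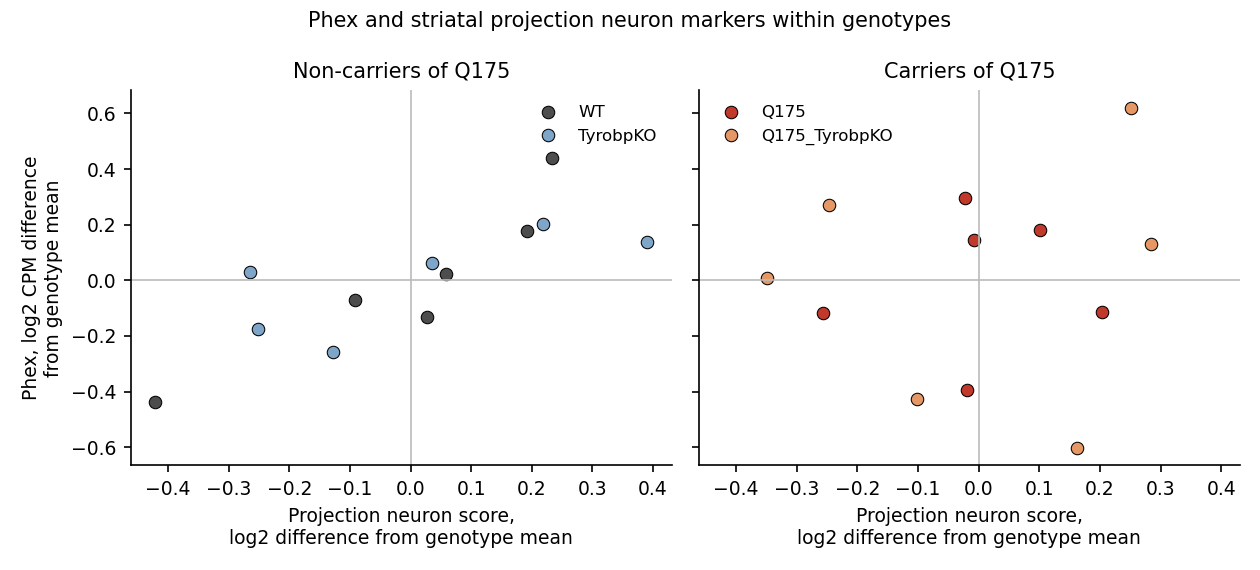
Phex (vertical axis, log2 CPM) against the projection neuron score (horizontal axis, mean log2 CPM of 28 markers), each as the difference from the genotype mean, for 12 non-carriers (left) and 12 carriers (right). Each point is a library. The non-carriers rise from lower left to upper right (r = 0.803) and the carriers form no line (r = 0.117).

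The other 2 genes did not pass in this family. Mafa against the score in non-carriers gave r = 0.682 (permutation p 0.0145, adjusted 0.0872). Within TyrobpKO r was 0.976 and within WT -0.777, so the relation did not hold within both genotypes. Mafa varied so little in WT that counting error weighs on the WT value. Ddit4l against the score gave r = 0.533 (permutation p 0.0830, adjusted 0.249) in non-carriers and 0.0972 (adjusted 0.840) in carriers. None of the 6 relations between pairs of the 3 genes passed, with the smallest adjusted p at 0.227 for Ddit4l and Mafa in non-carriers (permutation test, r = 0.422). For that pair r was -0.256 within WT and 0.831 within TyrobpKO.

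Likeness of pattern across all 24 libraries was described by Pearson's r of log2 CPM over 19666 other genes, with no test, since the libraries fall into carriers and non-carriers. The genes most like Ddit4l were Neto2 (r = 0.956), Rgs14 (0.952) and Sipa1l1 (0.949). Those most like Mafa were Hipk4 (0.963), Gm19410 (0.960) and Hrk (0.949), and those most like Phex were Jag1 (0.951), Gm19410 (0.941) and Hecw2 (0.940). The 3 genes were among the closest of each other, between 0.939 and 0.942. The genes most like them had smaller folds in Q175 against WT, from -1.25 for Hrk to -0.36 for Sipa1l1. That contrast was part of the choice of the 3.

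Once genotype and sex means were subtracted, the likeness among the 3 was lower, at r = -0.095 for Ddit4l and Mafa, 0.211 for Ddit4l and Phex and 0.0564 for Mafa and Phex. The closest genes were then others. They were Acvr1 (0.818), Hspa4 (0.813) and Resf1 (0.805) for Ddit4l, and Ergic1 (0.773), Calm2 (0.760) and Golm1 (0.751) for Mafa. For Phex they were the long intergenic noncoding RNA D230017M19Rik (0.886), Ube2c (0.764) and Gm13841 (0.737), of which Ube2c and Gm13841 were at means of 0.495 and 0.310 CPM in non-carriers. The r values among the 3 across all libraries thus largely reflect the genotype differences they were picked by. Among animals of like genotype and sex the r values were these lower ones.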

How the data were processed

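The authors deposited raw read counts per gene, which are whole numbers with no normalization, and the length of each gene model; per the file headers there is 1 count column for each of the 24 animals. Per the submitters' processing notes, STAR, featureCounts and DESeq2 were used, with no version or role given. Those notes list the human build GRCh38, while the identifiers and coordinates are mouse. Use of strand in counting is not given in the sources used here. Groups came from the labelled genotype. Counts of all 24 libraries entered 1 edgeR fit (edgeR 4.0.16 in R 4.3.3, quasi-likelihood test) with TMM scaling, filterByExpr, genotype means and sex as a covariate. Its p-values were adjusted by the Benjamini-Hochberg method over 19667 genes, and a gene was called under 0.05. The biological coefficient of variation was 16.2%. DESeq2 1.42.0, limma-voom (limma 3.58.1), no filter, no sex term, only the groups compared, each sex alone and leaving out each library were alternatives, and the fit was tested on simulated data. Log2 CPM used a prior count of 2. Relations used 100000 permutations within genotypes. The genes and lists were chosen with earlier results of these data known. Lists came from general knowledge. Besides the 3 genes, their relatives and neighbours, the text names from each list the 2 genes of smallest p in each Q175 contrast, the next gene in order and the 3 genes most alike by each measure. A single relative covered by this rule was left out and is not reported here. Nothing says that animals came from separate litters, so p-values measure the spread between these animals.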

Additional observations from a re-analysis of the deposited data

How the results depend on the processing

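The log2 fold changes of the 3 genes stayed below -1 in both Q175 contrasts under every alternative run. Relative to the projection neuron score they moved most, to -1.44 (Ddit4l), -1.77 (Mafa) and -1.68 (Phex) in Q175 against WT, and to -1.23 (Ddit4l) and -1.56 (Mafa) in Q175_TyrobpKO against TyrobpKO. Signs turned where values were near 0. For TyrobpKO against WT, Phex was at 0.032 in females alone and 0.20 relative to the score (chosen after the data were seen). For Q175_TyrobpKO against Q175, Ddit4l was at -0.030 and Mafa at -0.14 in males alone. Leaving out each of 24 libraries gave -0.030 to 0.074 for Ddit4l and -0.083 to 0.087 for Mafa in that contrast, -0.51 to -0.29 for Ddit4l in TyrobpKO against WT, and -0.0046 to 0.20 for the sex difference of the Mafa effect. In carriers, the relation of Ddit4l to Mafa turned to r = 0.174 without the 2 farthest libraries, and that of Ddit4l to Phex to 0.309, or 0.0448 after centring on genotype and sex. Over the alternatives, list counts in Q175 against WT ran from 0 to 3 (mTORC1), 0 to 5 (stress), 0 to 3 (Maf family), 1 to 4 (beta cell), 0 to 1 (M13) and 0 to 3 (phosphate). No paired analysis was possible because replicate numbers were given in accession order and name no shared animal or litter. Depth limits Mafa and Phex most: carriers had 29 to 95 reads per library for them.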
